A study of Mus musculus with 6 samples.

Results

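Solute carriers are membrane proteins that move sugars, amino acids, organic acids, ions, metals, lipids, vitamins and nucleotides across the plasma membrane or the membranes of organelles. Their mouse genes carry the symbol Slc with a family number, a letter and a member number. The genes described here are the protein-coding genes whose GRCm38 symbol begins in that form and whose FPKM averaged at least 1 over the 6 libraries of the study, with Slc2a3 left out. FPKM is a level per kilobase of transcript, scaled to the depth of the library. Of 368 Slc genes of this form, 207 reached that mean and 161 did not, in files of 54532 genes. The 207 genes fell into 46 families and were grouped by what they carry. Slc9a3r1, Slc9a3r2, Slc4a1ap and Slc7a6os share the form of the symbol but encode no carrier, and were kept as a group of their own.

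RNA was sequenced from cells of mouse testis labelled as pachytene cells, which are spermatocytes in the long prophase stage of meiosis, purified by STA-PUT sedimentation from mice at about postnatal day 80. The groups were MAPS EE;MAPS KO cells, called EE_KO and labelled as overexpressing MAPS on a knockout background, MAPS KO cells, called KO (MAPS-/-), and WT cells, with 2 libraries each. Cells of 3 mice of the same genotype were used for each group, and the design speaks of 2 independent experiments. EE_KO shares the MAPS deletion with KO. The promoter that drives MAPS in EE_KO and the meaning of the letters EE were each not given in the sources used here. Whether a library pools mice was not stated either, so a p-value here reflects no more than the spread between libraries, which may be technical.

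The MAPS gene, 1700102P08Rik, had 108.6 and 82.2 FPKM in EE_KO, 7.97 and 10.1 in KO and 157.0 and 150.2 in WT. Between 14178387 and 16565238 reads lay on genes in each library. The label of the cells was checked against 10 genes of pachytene spermatocytes, such as Ldhc, Piwil1 and Tdrd6, whose summed FPKM was 5028 and 5477 in EE_KO, 231 and 272 in KO and 5913 and 5387 in WT. The summed level of these genes was therefore low in KO, where Ldhc had 52.9 and 68.5 FPKM beside 2816 and 2500 in WT. The listed genes did not fall alike. Sycp3 of the synaptonemal complex had 42.4 and 54.9 FPKM in KO and 74.0 and 72.8 in WT. Hormad1 had 33.1 and 34.5 FPKM in KO and 51.7 and 56.1 in WT. Summed FPKM of 12 Sertoli cell genes was 489.7 and 263.5 in EE_KO, 4244 and 4014 in KO and 306.1 and 307.7 in WT. Summed FPKM of 7 Leydig cell genes was 173.1 and 81.6 in EE_KO, 2173 and 2085 in KO and 56.7 and 105.8 in WT. Of these genes, 12 of 12 and 7 of 7 rose in KO against WT. None of the listed markers of these cell types was at 0 in all libraries. Of 7 spermatogonial genes, 6 of 6 tested rose, and Gfra1, whose mean was too low for the test, had 0.773 and 0.708 FPKM in EE_KO, 0.518 and 0.347 in KO and 0.926 and 1.23 in WT. In KO against WT 10 of 10 spermatid genes fell, with a summed FPKM of 2139 and 3085 in EE_KO, 19.3 and 19.3 in KO and 1760 and 3370 in WT. The part of these cell types in the changes of Slc genes was not tested, and in RNA of a whole cell preparation fewer cells of a type and less RNA per cell cannot be told apart.

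As background, male germ cells depend on the cells around them for fuel. Sertoli cells take up glucose, largely through the glucose carrier GLUT1 (Slc2a1), and export lactate, which spermatocytes and spermatids take up and burn in their mitochondria. Sperm later use carriers of their own, among them a sodium-proton exchanger in the tail (Slc9c1), an anion carrier that works beside the CFTR channel (Slc26a8) and an ADP/ATP carrier found in germ cells (Slc25a31, also ANT4). In spermatocytes the X chromosome is silenced during the pachytene stage, and some X-linked genes have autosomal relatives that are active then.

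The sugar carriers and the ADP/ATP carriers each hold a gene that was high in EE_KO and WT and a relative that was high in KO. The DNA before RefSeq's transcript start of these genes is therefore shown first. The windows are the 250 bases before that start in GRCm38.p6, read 5′ to 3′ on the strand of the gene. GENCODE, which gave the gene positions used here, places some starts further upstream. Most of the Slc25a4 window thus lies inside its GENCODE gene, as do the ends of the Slc2a5, Slc2a1 and Slc25a31 windows. Slc2a5, the fructose carrier GLUT5, was the highest of the 207 genes in EE_KO and WT, and Slc2a1 stands beside it. Slc25a31 belongs to the carriers that exchange ADP and ATP across the inner mitochondrial membrane, with the autosomal Slc25a4 (ANT1) and the X-linked Slc25a5 (ANT2). Capitals mark matches, on either strand, to 4 motifs: the MYB core CAACTG, the CRE TGACGTCA, the RFX-bound core GTTGCC of the X-box, and the E-box CACGTG. In the window of Slc2a5 the MYB core and the X-box core overlap and are printed as 1 run of capitals. The windows lie at chr4:150119094-150119343 (plus strand, Slc2a5), chr4:119108495-119108744 (plus, Slc2a1), chr3:40708621-40708870 (plus, Slc25a31), chr8:46211063-46211312 (minus, Slc25a4) and chrX:36795347-36795596 (plus, Slc25a5).
Slc2a5: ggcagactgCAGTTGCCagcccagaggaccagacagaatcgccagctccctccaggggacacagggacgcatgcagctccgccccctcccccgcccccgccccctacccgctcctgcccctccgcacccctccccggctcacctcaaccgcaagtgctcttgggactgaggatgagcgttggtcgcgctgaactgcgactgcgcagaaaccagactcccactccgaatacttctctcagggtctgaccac
Slc2a1: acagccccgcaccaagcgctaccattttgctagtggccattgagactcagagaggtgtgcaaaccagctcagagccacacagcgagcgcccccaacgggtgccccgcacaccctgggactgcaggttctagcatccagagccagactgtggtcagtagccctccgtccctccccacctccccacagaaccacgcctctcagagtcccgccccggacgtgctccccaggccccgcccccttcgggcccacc
Slc25a31: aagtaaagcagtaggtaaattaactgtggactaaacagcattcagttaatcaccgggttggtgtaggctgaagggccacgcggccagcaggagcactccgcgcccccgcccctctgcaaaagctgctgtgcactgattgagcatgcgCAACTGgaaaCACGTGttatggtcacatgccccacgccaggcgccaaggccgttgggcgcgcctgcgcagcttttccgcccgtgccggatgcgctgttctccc
Slc25a4: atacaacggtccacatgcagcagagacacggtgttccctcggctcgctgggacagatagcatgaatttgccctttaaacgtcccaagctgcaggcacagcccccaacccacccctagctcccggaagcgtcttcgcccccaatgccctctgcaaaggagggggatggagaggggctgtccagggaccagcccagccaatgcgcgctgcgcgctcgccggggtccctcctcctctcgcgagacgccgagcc
Slc25a5: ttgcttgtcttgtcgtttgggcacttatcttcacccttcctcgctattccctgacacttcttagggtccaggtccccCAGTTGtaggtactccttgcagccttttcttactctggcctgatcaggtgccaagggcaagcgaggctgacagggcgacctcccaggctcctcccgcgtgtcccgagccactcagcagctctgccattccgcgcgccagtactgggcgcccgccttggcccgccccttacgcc

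The windows of Slc2a5, Slc25a31 and Slc25a5 held a MYB core, and those of Slc2a1 and Slc25a4 held none of the 4 motifs. That of Slc25a31 also held an E-box. Among 32851 windows of RefSeq, 11.1% held the MYB core, 1.55% the CRE, 10.4% the X-box core and 6.02% the E-box. RefSeq had a window for 162 of the 207 genes, some of them with several. Of 46 windows of the 41 matched genes that fell in KO against WT, 6 held the MYB core, 1 the CRE, 6 the X-box core and 6 the E-box. Of 130 windows of the 101 matched genes that rose, 8 held the MYB core, 2 the CRE, 20 the X-box core and 17 the E-box. The motif is a run of letters here, and neither a match nor its absence shows what binds there. The windows of both sets were richer in G and C than windows in general, with a median of 59.2% for genes that fell, 61.4% for genes that rose and 52.4% over all windows.

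How Slc transcripts differed between KO and WT was the first comparison. More Slc genes were higher in KO than lower, while the 4 highest in WT, Slc2a5, Slc25a39, Slc6a21 and Slc22a16, were among those that fell. In KO against WT, 128 of the 207 genes rose (61.8%), where 37.7% of all 15907 genes tested rose, and 51 fell (24.6%), where 47.1% of all genes tested fell. The other 28 did not pass. Changes of 4-fold or more were seen in 57 genes that rose, where 13.7% of all genes tested did so, and in 27 that fell, where 20.6% of all genes tested did so. A gene was called changed at an adjusted p below 0.05 in limma on log2(FPKM + 1), with the Benjamini-Hochberg method over all genes tested. The median log2 change of the 207 genes was 0.92, beside -0.26 over all genes tested. Libraries of KO and WT did not overlap for 196 of the 207 genes, where the share over all genes tested was 92.7%. The median of all genes depended on the scale, at 0.12 with TPM and -0.01 after quantile normalization, and the counts of Slc genes were 140 up and 45 down with TPM and 136 up and 49 down after quantile normalization.

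These counts rest in part on how the genes were chosen. A gene near 0 in EE_KO and WT reached the mean of 1 only through KO, and 35 of the 207 genes were below 1 in both EE_KO and WT, while 16 were below 1 in KO. The share of genes below 1 in both EE_KO and WT was 16.9% among the 207 and 9.65% among all genes tested. With a mean of at least 5 FPKM, 61 of 113 Slc genes rose and 40 fell, where 2986 of 8901 genes rose and 4818 fell. Just inside the limit stood Slc26a6, Slc9a3r2 and Slc17a7 with means of 1.03, 1.04 and 1.09 FPKM, and just outside it Slc9a3, Slc10a6 and Slc6a9 with 0.986, 0.972 and 0.925. Slc10a6 had 0.193 and 0.0944 FPKM in EE_KO, 2.04 and 2.95 in KO and 0.235 and 0.311 in WT, and Slc9a3 had 1.12 and 1.42 in EE_KO, 0.111 and 0.0314 in KO and 1.999 and 1.24 in WT. Among the 161 genes outside the limit, 3 averaged 1 or more in EE_KO, 23 in KO and 3 in WT, and 6 were listed at 0 in all libraries.

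**Figure D1:**
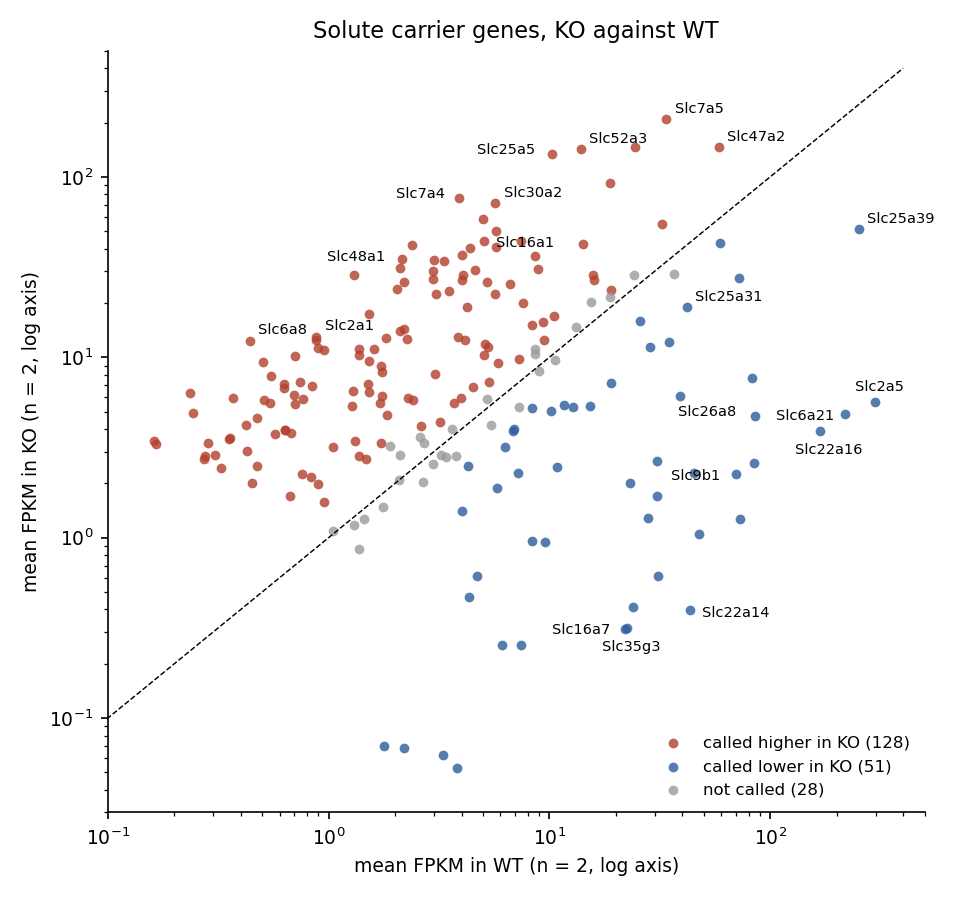
Mean FPKM of 207 solute carrier genes in KO (vertical log axis) against WT (horizontal log axis), each a mean of 2 libraries, with a dashed line of equal level. Red points rose in KO (128), blue points fell (51) and grey points did not pass. Slc2a5, Slc6a21 and Slc22a16 lie far right and low, and Slc7a5, Slc52a3, Slc25a5 and Slc47a2 lie at the top.

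A few genes made up much of the Slc transcript pool in each group, and the highest in EE_KO and WT differed from the highest in KO. The 207 genes held 0.898% and 0.873% of all FPKM in EE_KO, 1.36% and 1.32% in KO and 0.922% and 0.859% in WT. Slc2a5, Slc25a39, Slc6a21 and Slc22a16 were the highest, in this order, in each library of EE_KO and WT. Slc7a5 was the highest in both KO libraries, followed by Slc52a3, Slc3a2, Slc25a5 and Slc47a2 in an order that differed between the libraries. The top 5 held 33.3% and 34.5% of the FPKM of the 207 genes in EE_KO, 23.7% and 24.1% in KO and 35.8% and 34.1% in WT. Of the 368 Slc genes, the number at 1 FPKM or more was 180 and 169 in EE_KO, 213 and 212 in KO and 168 and 169 in WT.

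**Figure D2:**
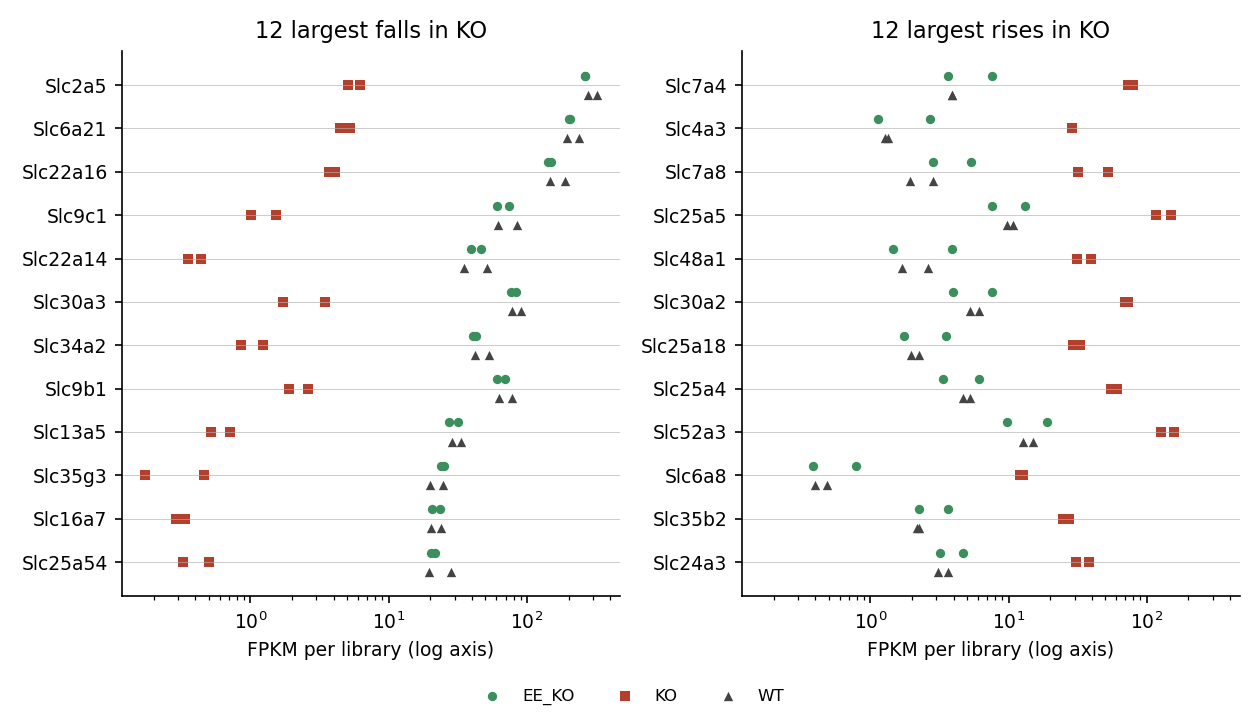
FPKM in each library (log axis) of 12 genes that fell and 12 that rose in KO against WT. EE_KO libraries are green circles, KO red squares and WT dark triangles. The genes are the largest changes among up to 3 falls and 3 rises taken per substrate group. Slc38a2, with a rise of 3.14, was therefore left out. In each of the 24 genes the KO libraries lie apart from all 4 others.

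Among carriers of sugars, the fructose carrier Slc2a5 fell and the glucose carrier Slc2a1 rose, and their relatives lay on both sides. Of 13 sugar carriers, 8 rose, 3 fell and 2 did not pass. Slc2a5 had 262 and 264 FPKM in EE_KO, 6.25 and 5.08 in KO and 323 and 277 in WT. The KO libraries lay far below the others, and WT stood slightly above EE_KO. The log2 change in KO against WT was -5.50 (SE 0.13, limma adjusted p = 3.84e-07), the largest fall among the 207 genes. Slc2a8, the carrier GLUT8 of internal membranes, had 29.8 and 29.4 FPKM in EE_KO, 12.8 and 11.4 in KO and 39.4 and 30.2 in WT, and fell less (-1.44, SE 0.14). Slc2a1 had 2.34 and 1.03 FPKM in EE_KO, 13.9 and 12.2 in KO and 0.856 and 0.905 in WT. It rose in KO by 2.90 (SE 0.24, limma adjusted p = 2.72e-05), with EE_KO replicate 1 the highest outside KO. Of the FPKM of these 3 GLUT genes, Slc2a5 took 89.4% ± 0.409 in EE_KO, 18.3% ± 0.909 in KO and 89.4% ± 0.692 in WT, and Slc2a1 took 0.572% ± 0.315, 42.3% ± 0.268 and 0.265% ± 0.0410 in the same order (SD, n = 2). Slc50a1, the only SWEET-type sugar carrier of mammals, had 0.885 and 0.684 FPKM in EE_KO, 5.35 and 7.30 in KO and 0.244 and 0.225 in WT. Slc45a3 rose by 2.74 (SE 0.28), with KO libraries apart from each other at 12.1 and 6.58 FPKM. Slc5a4b, of the sodium-glucose carrier family, stood under 2 FPKM throughout and fell by 1.37 on the log2 scale. The sum over the 13 genes was 326 and 321 FPKM in EE_KO, 147 and 120.2 in KO and 393 and 334 in WT, so that Slc2a5 set the sum although most of the genes rose.

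Among carriers of monocarboxylates such as lactate and pyruvate, Slc16a7 was lower and Slc16a1 higher in KO than in WT. Slc16a7, the high-affinity carrier MCT2, had 20.6 and 23.6 FPKM in EE_KO, 0.334 and 0.287 in KO and 20.1 and 24.0 in WT. The change in KO against WT was -4.13 (SE 0.14, limma adjusted p = 7.52e-07). Slc16a1, the widely expressed MCT1, had 7.42 and 5.95 FPKM in EE_KO, 47.1 and 41.6 in KO and 4.23 and 5.88 in WT, a rise of 2.91 (SE 0.17, limma adjusted p = 6.62e-06). Slc16a3, MCT4 of cells that export lactate, fell (-0.67, SE 0.17, limma adjusted p = 0.00843), with 6.77 and 5.89 FPKM in EE_KO, 4.73 and 3.31 in KO and 6.66 and 7.14 in WT. That call was lost with TPM (-0.34, limma adjusted p = 0.124) and without KO replicate 2 (-0.46, limma adjusted p = 0.0537). Of the FPKM of these 3, Slc16a7 took 62.9% ± 5.22 in EE_KO, 0.638% ± 0.00370 in KO and 64.9% ± 0.0643 in WT, and Slc16a1 took 19.1% ± 3.22, 91.2% ± 1.24 and 14.8% ± 1.60 in the same order (SD, n = 2). Among all 11 carboxylate carriers, 8 rose and 3 fell. The citrate carrier Slc13a5 was the other large fall, with 27.5 and 31.6 FPKM in EE_KO, 0.518 and 0.711 in KO and 33.4 and 28.6 in WT. Its exons overlap those of 1700051A21Rik, and with the strand of the reads unknown, the reads of these genes cannot be told apart. Slc13a2, which carries dicarboxylates, was below 1 FPKM in WT and rose by 2.25 (SE 0.24).

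**Figure D3:**
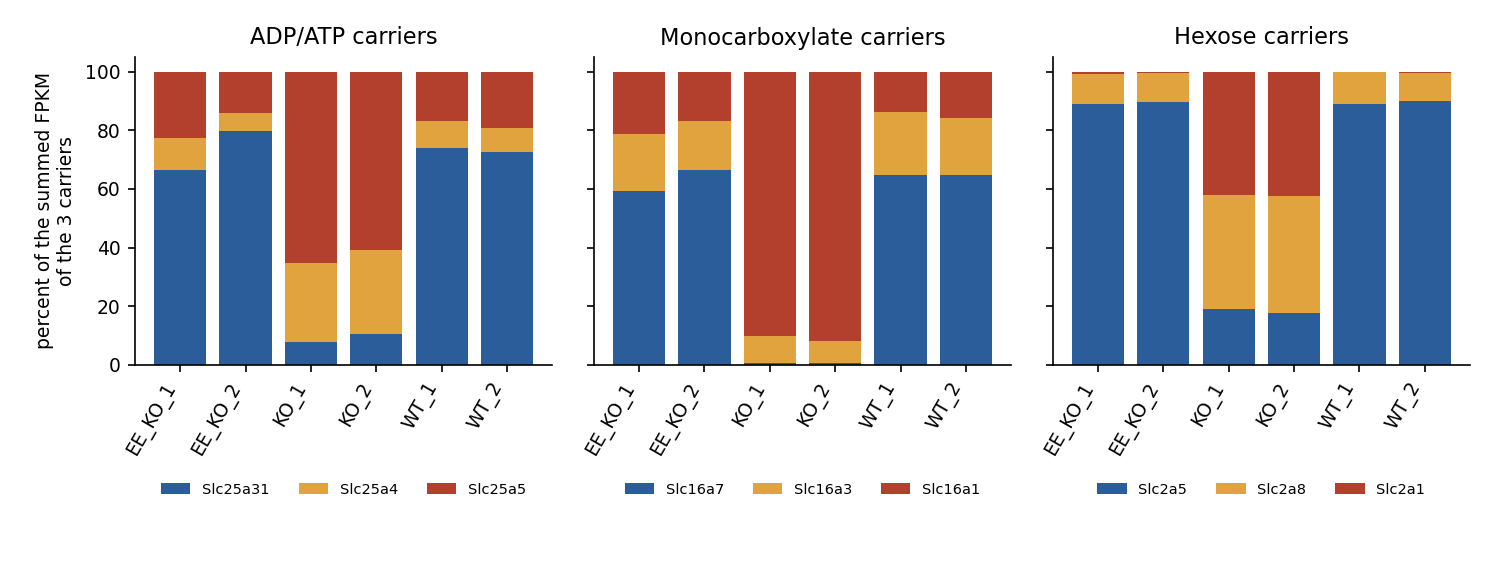
Share of FPKM held by each gene within 3 small carrier sets (ADP/ATP carriers, monocarboxylate carriers and GLUT sugar carriers), in percent, for each library of EE_KO, KO and WT. In KO, Slc25a31, Slc16a7 and Slc2a5 hold 9.12%, 0.638% and 18.3% of their sets on average, against 73.3%, 64.9% and 89.4% in WT.

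Of 42 mitochondrial carriers of the Slc25 family, 24 rose, 10 fell and 8 did not pass, with a median log2 change of 0.56. The ADP/ATP carriers moved in opposite directions. Slc25a31 (chromosome 3, 40708855 to 40726096, plus strand) had 38.4 and 42.8 FPKM in EE_KO, 17.9 and 19.99 in KO and 43.0 and 40.8 in WT. It fell by 1.11 on the log2 scale (SE 0.11, limma adjusted p = 6.30e-05) and its KO libraries lay below the other 4. Slc25a5 (chromosome X, 36795651 to 36798807, plus strand) had 13.2 and 7.55 FPKM in EE_KO, 149.5 and 117 in KO and 9.81 and 10.8 in WT. Slc25a4 (chromosome 8, 46206797 to 46211284, minus strand) had 6.15 and 3.35 FPKM in EE_KO, 61.3 and 55.2 in KO and 5.28 and 4.69 in WT. Both rose, by 3.56 (SE 0.24) for the X-linked gene and 3.31 (SE 0.23) for the autosomal one, so a rise of this size was not limited to the X-linked gene. In both, EE_KO replicate 1 exceeded every WT library and EE_KO replicate 2 lay below every WT library. Slc25a31 made up 73.1% ± 9.30 of the FPKM of the 3 carriers in EE_KO, 9.12% ± 1.80 in KO and 73.3% ± 1.04 in WT (SD, n = 2), a difference of -64.2 percentage points between KO and WT. With 2 libraries against 2, an exact two-sided permutation test cannot go below p = 0.33. Slc25a5 has processed copies in the mouse genome, and how reads that match several places were counted is unknown here.

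Among the other mitochondrial carriers, Slc25a39, which brings glutathione into mitochondria, was the most abundant in EE_KO and WT. It had 249 and 261 FPKM in EE_KO, 52.7 and 50.4 in KO and 257 and 246 in WT, and remained one of the higher Slc genes in KO despite a change of -2.26 (SE 0.09, limma adjusted p = 1.55e-06). Slc25a54 had 20.3 and 21.6 FPKM in EE_KO, 0.500 and 0.323 in KO and 28.2 and 19.4 in WT. The ornithine carrier Slc25a2 had 27.6 and 24.9 FPKM in EE_KO, 2.60 and 2.69 in KO and 33.5 and 28.2 in WT. Slc25a41, a relative of the ATP-magnesium carriers, changed by -2.50 (SE 0.16). Slc25a18, a glutamate carrier, had 3.54 and 1.75 FPKM in EE_KO, 33.1 and 29.5 in KO and 1.98 and 2.25 in WT, but its exons overlap those of Atp6v1e1. The X-linked Slc25a14 also rose, with 1.502 and 0.876 FPKM in EE_KO, 11.2 and 11.2 in KO and 0.695 and 1.09 in WT. The 8 that did not pass included Slc25a11, the oxoglutarate carrier, with 13.8 and 12.9 FPKM in EE_KO, 14.9 and 14.5 in KO and 14.2 and 12.1 in WT, named after its values were seen.

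Carriers of protons, bicarbonate and other anions held 3 genes known from sperm that fell by more than 3 on the log2 scale, Slc9c1, Slc9b1 and Slc26a8, and more genes that rose than fell. Of 18, 11 rose, 6 fell and 1 did not pass. Slc9a5, named after its values were seen, also fell by more than 3 (-3.57, SE 0.17). Slc9c1, the sodium-proton exchanger of the sperm tail, had 60.4 and 74.7 FPKM in EE_KO, 1.01 and 1.53 in KO and 85.0 and 61.7 in WT (KO against WT -5.02, SE 0.20, limma adjusted p = 1.30e-06). Slc9b1, a related sperm exchanger, had 60.5 and 69.9 FPKM in EE_KO, 1.89 and 2.62 in KO and 77.4 and 62.6 in WT (-4.45, SE 0.16, limma adjusted p = 9.71e-07). Slc26a8, the anion carrier of sperm, had 87.6 and 98.9 FPKM in EE_KO, 3.93 and 5.58 in KO and 93.9 and 76.7 in WT (-3.91, SE 0.17, limma adjusted p = 1.91e-06). The WT and EE_KO libraries of these 3 genes overlapped, and the KO libraries lay below all of them. Slc9a8, an exchanger of internal membranes and the acrosome, changed less, with 12.4 and 13.5 FPKM in EE_KO, 5.15 and 5.49 in KO and 13.2 and 12.5 in WT. Among the genes that rose, the anion exchanger AE3 (Slc4a3) had 2.70 and 1.14 FPKM in EE_KO, 28.6 and 28.7 in KO and 1.28 and 1.34 in WT (3.68, SE 0.25, limma adjusted p = 1.09e-05). Slc26a7 had 3.62 and 1.92 FPKM in EE_KO, 29.4 and 18.3 in KO and 2.27 and 1.81 in WT. AE2 (Slc4a2), whose exons overlap those of Fastk, rose by 2.47 (SE 0.21). The FPKM of the 18 summed to 291 and 323 in EE_KO, 168 and 152 in KO and 343 and 281 in WT.

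Amino acid carriers were the largest group after the mitochondrial ones, and 17 of 29 rose while 9 fell and 3 did not pass. The highest in EE_KO and WT was Slc6a21, a member of the neurotransmitter carrier family whose substrate is not settled, with 202 and 206 FPKM in EE_KO, 4.44 and 5.25 in KO and 240.1 and 195 in WT. It fell by 5.22 on the log2 scale (SE 0.13, limma adjusted p = 4.27e-07). Its neighbour on chromosome 7, Slc6a16 (45241085 to 45273367, plus strand, beside Slc6a21 at 45277513 to 45288998), had 42.8 and 44.3 FPKM in EE_KO, 2.32 and 2.25 in KO and 50.2 and 39.9 in WT. Slc1a2, the glutamate carrier GLT-1, stood low and changed by -2.004 (SE 0.17), with its exons overlapping Gm13872. In KO the highest were Slc7a5 and Slc3a2, the light and heavy chains of the carrier LAT1 of large neutral amino acids. Slc7a5 had 46.4 and 35.8 FPKM in EE_KO, 214 and 202 in KO and 32.0 and 35.8 in WT (2.59, SE 0.14, limma adjusted p = 4.69e-06). Slc3a2 had 32.5 and 24.6 FPKM in EE_KO, 151 and 142 in KO and 22.1 and 26.9 in WT (2.54, SE 0.16, limma adjusted p = 7.73e-06). The mean FPKM in KO was 6.14 times that in WT for Slc7a5 and 5.98 times for Slc3a2, and the EE_KO libraries lay near those of WT.

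Other amino acid carriers rose from lower levels. Slc7a4, of the cationic amino acid family, had the largest rise of the 207 genes on the log2(FPKM + 1) scale, with 7.58 and 3.64 FPKM in EE_KO, 79.2 and 73.1 in KO and 3.89 and 3.88 in WT (3.98, SE 0.26, limma adjusted p = 1.04e-05). Slc7a8, which pairs with the same heavy chain as Slc7a5, had 5.33 and 2.82 FPKM in EE_KO, 52.1 and 31.7 in KO and 1.93 and 2.85 in WT. Slc38a2, a glutamine and alanine carrier, had 5.15 and 3.28 FPKM in EE_KO, 37.8 and 31.3 in KO and 2.85 and 3.17 in WT. Slc1a5, another glutamine carrier, had 1.18 and 0.945 FPKM in EE_KO, 2.36 and 2.12 in KO and 0.650 and 0.871 in WT, a change of 0.88 (SE 0.16) on the log2(FPKM + 1) scale and a ratio of 2.95 between mean FPKM of KO and WT. The X-linked genes of this group were the creatine carrier Slc6a8, with 0.786 and 0.385 FPKM in EE_KO, 12.6 and 12.1 in KO and 0.398 and 0.482 in WT, Slc6a14 (2.82, SE 0.17) and Slc38a5 (1.49, SE 0.15). By family, 7 of 8 Slc7 genes rose, none fell and 1 did not pass, while 4 of 7 Slc6 genes fell and 3 rose.

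Organic ion carriers, which include those of carnitine, had 5 genes down and 4 up of 9 and a median log2 change of -2.75, where 47.1% of all genes tested fell and 37.7% rose. Carnitine carries fatty acids into mitochondria and is abundant in the epididymis. Slc22a16, a carnitine carrier of the testis, had 142.8 and 150 FPKM in EE_KO, 3.71 and 4.07 in KO and 190 and 146 in WT (-5.10, SE 0.14, limma adjusted p = 4.72e-07). Slc22a14, a sperm member of the family, had 39.5 and 46.3 FPKM in EE_KO, 0.435 and 0.355 in KO and 35.0 and 51.5 in WT, the largest ratio of WT over KO among the genes that fell, at 109. The carnitine carriers Slc22a21 and Slc22a5 lie in 1 cluster on the minus strand of chromosome 11, with Slc22a4 beside them. Slc22a21 (53949965 to 53980332) had 72.5 and 75.7 FPKM in EE_KO, 8.80 and 6.58 in KO and 94.6 and 71.4 in WT. Slc22a5 (53864542 to 53891660), the widely expressed OCTN2, had 15.6 and 17.7 FPKM in EE_KO, 26.7 and 27.1 in KO and 16.7 and 15.1 in WT. The neighbours thus moved in opposite directions, by -3.27 (SE 0.17) and 0.73 (SE 0.11), although how reads shared by these similar genes were counted is not known. Slc47a2, an exporter of organic cations, was high in every library, with 62.5 and 58.4 FPKM in EE_KO, 140 and 151 in KO and 57.9 and 59.0 in WT. Slc22a17 had 1.81 and 1.15 FPKM in EE_KO, 11.8 and 10.1 in KO and 0.870 and 1.04 in WT.

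Metal carriers rose in 16 of 24 genes and fell in 5, with zinc carriers in both sets. Slc30a3, the zinc carrier ZnT3 known from synaptic vesicles, had 77.2 and 83.7 FPKM in EE_KO, 1.71 and 3.45 in KO and 89.9 and 78.6 in WT (-4.61, SE 0.22, limma adjusted p = 2.91e-06). Slc30a2 (ZnT2) had 7.55 and 3.99 FPKM in EE_KO, 73.6 and 69.5 in KO and 6.15 and 5.23 in WT (3.44, SE 0.24, limma adjusted p = 1.29e-05). The KO libraries stood apart from the others in both genes, in opposite directions. The sum of the 8 Slc30 genes was 117 and 122 FPKM in EE_KO, 162 and 154 in KO and 125 and 115 in WT. The zinc importers split likewise, with 5 of 10 Slc39 genes up and 4 down. Slc39a3 had 32.9 and 30.4 FPKM in EE_KO, 7.01 and 5.25 in KO and 44.0 and 33.8 in WT, and Slc39a8 changed by -2.25 (SE 0.14). Slc39a1 had 5.20 and 4.78 FPKM in EE_KO, 42.7 and 37.8 in KO and 3.47 and 5.25 in WT. Slc39a14 had 2.08 and 2.64 FPKM in EE_KO, 2.42 and 1.78 in KO and 1.96 and 2.23 in WT, and its groups overlapped (0.00, SE 0.18, limma adjusted p = 0.987). The iron carrier DMT1 (Slc11a2) had 6.63 and 4.91 FPKM in EE_KO, 44.2 and 37.6 in KO and 5.60 and 5.92 in WT. Slc39a6, at 61.3 and 69.6 FPKM in EE_KO, 45.0 and 40.9 in KO and 62.4 and 55.5 in WT, was called lower in KO (-0.45, SE 0.12) but lost the call with TPM (-0.02) and without WT replicate 1 (-0.36). Of the genes called in KO against WT it was the 1 whose sign changed with TPM, quantile normalization or voom, at 0.19 after quantile normalization, where it was not called.

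Carriers of fatty acids, choline and vitamins held no gene that fell. Of 8 lipid and choline carriers 7 rose, with a median of 2.27. Of 9 vitamin and cofactor carriers 7 rose, with a median of 1.85. Among all genes tested 37.7% rose and 47.1% fell, and among the 207 genes 61.8% rose. Slc44a1, Slc27a4, Slc23a2, Slc46a3, Slc5a6 and Slc46a1 were below 1 FPKM in both EE_KO and WT. They reached the mean of 1 FPKM only through KO, so that their rise came with the choice of genes. Summed FPKM of the lipid and choline carriers was 32.9 and 21.6 in EE_KO, 187 and 170 in KO and 27.4 and 25.4 in WT. Slc44a2, of the choline carrier-like family, had 7.98 and 4.87 FPKM in EE_KO, 52.1 and 48.0 in KO and 6.12 and 5.38 in WT. Slc27a3 and Slc27a6, of the fatty acid transport proteins, rose by 2.91 (SE 0.31) and 2.51 (SE 0.32). The riboflavin carrier Slc52a3 was the second highest of the 207 genes in KO replicate 1, with 18.9 and 9.73 FPKM in EE_KO, 157 and 127 in KO and 14.9 and 12.8 in WT (3.26, SE 0.28, limma adjusted p = 3.04e-05). Slc48a1, a heme carrier whose exons overlap those of Hdac7, had 3.87 and 1.46 FPKM in EE_KO, 39.3 and 31.1 in KO and 1.69 and 2.62 in WT. Slc46a1, the proton-coupled folate carrier, had 1.17 and 0.672 FPKM in EE_KO, 10.9 and 9.49 in KO and 0.835 and 0.579 in WT. The genes that did not pass were Slc10a7 among the lipid carriers and the acetyl-CoA carrier Slc33a1 and the thiamine carrier Slc19a2 among the others.

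The Slc35 family, grouped here as carriers of nucleotide sugars, which feed the Golgi, rose in 13 of 20 genes and fell in 3. Among all 207 genes 61.8% rose. The group was assigned by family, and the substrate of each member was not checked. Slc35b2, which carries the sulfate donor PAPS, had 3.65 and 2.26 FPKM in EE_KO, 27.2 and 24.9 in KO and 2.23 and 2.17 in WT. Slc35f2 and Slc35g1 rose by 2.98 (SE 0.16) and 2.85 (SE 0.18). Slc35g3 went the other way, with 25.0 and 24.0 FPKM in EE_KO, 0.172 and 0.462 in KO and 20.04 and 24.8 in WT (-4.15, SE 0.16, limma adjusted p = 1.25e-06). The other 2 that fell, Slc35f6 and Slc35b4, changed by -0.81 (SE 0.14) and -0.68 (SE 0.14), and Slc35b4 lost its call with TPM (-0.35, limma adjusted p = 0.0527).

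Phosphate and vesicular carriers rose in 4 of 7 and fell in 2. Slc34a2, the phosphate carrier NaPi-IIb, had 41.1 and 43.1 FPKM in EE_KO, 0.855 and 1.24 in KO and 52.9 and 42.0 in WT (-4.56, SE 0.15, limma adjusted p = 7.46e-07). The vesicular nucleotide carrier Slc17a9 fell by 1.82 (SE 0.18) and the phosphate carrier Slc20a2, which overlaps Smim19, rose by 2.24 (SE 0.30). Slc17a5, a sialic acid carrier of lysosomes, and Slc18b1, a vesicular polyamine carrier, rose from under 1 FPKM in EE_KO and WT. Of 9 carriers of sodium, potassium and calcium, 6 rose and 2 fell. The sodium-calcium exchanger Slc8a2 had 23.2 and 21.01 FPKM in EE_KO, 1.21 and 1.36 in KO and 30.1 and 26.1 in WT (-3.67, SE 0.13, limma adjusted p = 7.83e-07). Slc24a3, which exchanges sodium for calcium and potassium, had 4.70 and 3.18 FPKM in EE_KO, 38.0 and 30.6 in KO and 3.61 and 3.07 in WT. The potassium-chloride carrier Slc12a5 fell by 1.79 (SE 0.14), while Slc12a9 and Slc12a4 rose by 2.52 (SE 0.17) and 0.96 (SE 0.22). Of 3 nucleoside carriers Slc28a1 and Slc29a1 did not pass and Slc29a3 fell by 0.60 (SE 0.16), a call lost with TPM (-0.33) and without KO replicate 2 (-0.43), and the urea carrier Slc14a2 fell by 2.19 (SE 0.18). Of the 4 genes that encode no carrier, Slc9a3r2, Slc9a3r1 and Slc7a6os rose by 1.38, 0.69 and 0.37 and Slc4a1ap, which overlaps Supt7l, fell by 0.59. The calls of Slc9a3r1 were lost without KO replicate 1 (0.57) or WT replicate 1 (0.52), those of Slc7a6os without KO replicate 2 (0.25) or WT replicate 2 (0.29), and that of Slc4a1ap with TPM (-0.23).

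**Figure D4:**
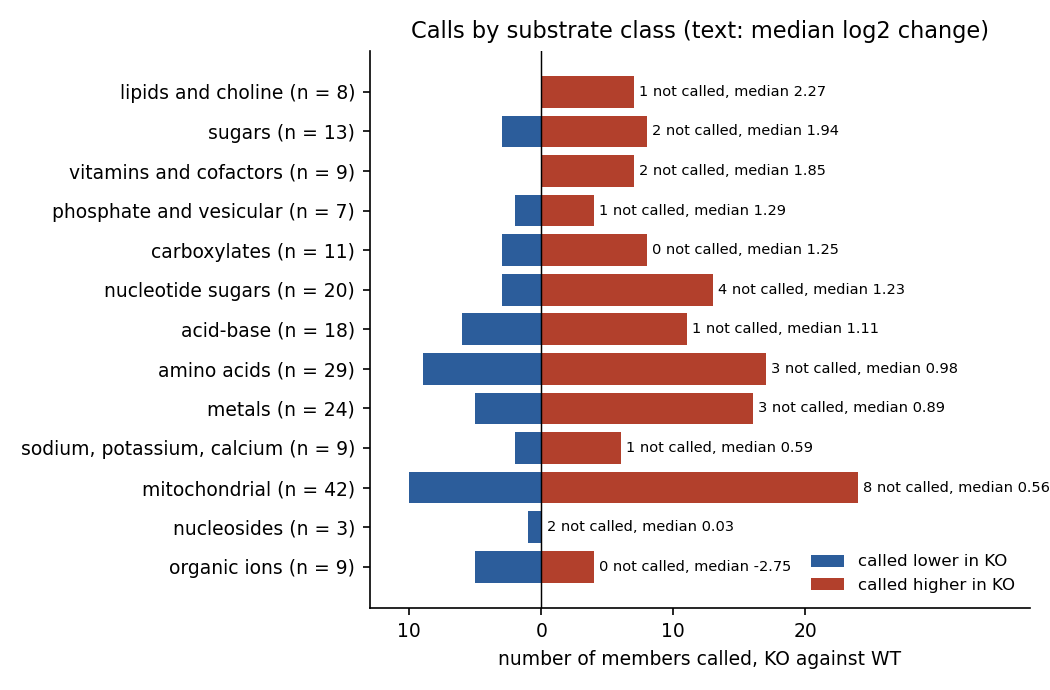
Number of genes of each substrate group that rose (red, to the right), fell (blue, to the left) or did not pass (in the text beside each bar, with the median log2 change) in KO against WT (limma, Benjamini-Hochberg adjusted p below 0.05). Organic ion carriers hold 5 genes that fell and 4 that rose, and lipid and vitamin carriers hold none that fell. Some of the lipid and vitamin carriers reached the mean of 1 FPKM only through KO.

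Of the 207 genes, 10 lie on the X chromosome, and 10 of 10 rose in KO against WT, with a median of 2.16. Over all 547 X-linked genes tested, 73.1% rose and the median was 1.95, so the Slc genes are not set apart from the chromosome by these counts. Their summed FPKM was 21.3 and 13.8 in EE_KO, 217 and 177 in KO and 15.7 and 17.5 in WT. Slc25a5 made up most of that sum in KO. Slc25a53, Slc9a7 and Slc7a3, also X-linked, did not reach a mean of 1 FPKM.

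The genes that rose in KO were set beside the somatic and spermatogonial markers by the ratio of mean FPKM. The 12 Sertoli genes stood 11.0 to 16.2 times higher in KO than in WT and the 7 Leydig genes 11.5 to 54.0 times. In the 7 spermatogonial genes KO stood at 0.401 to 12.4 times the level of WT, with a median of 10.9. The 128 Slc genes that rose stood 1.25 to 28.1 times higher, with a median of 6.56. In 28 of them the ratio reached that of the lowest Sertoli gene, among them Slc6a8, Slc50a1, Slc4a3 and Slc7a4, and in 100 it was below. Several of the 28, such as Slc6a8, Slc50a1, Slc4a5 and Slc25a22, were below 1 FPKM in both EE_KO and WT. These reached the mean of 1 FPKM only through KO, and their ratios rest on low levels in WT. Slc7a5, Slc3a2, Slc16a1 and Slc47a2, at 6.14, 5.98, 8.76 and 2.49 times, were among the 100. The 51 genes that fell stood 1.37 to 109 times higher in WT than in KO, with a median of 10.1, beside 1.51 to 57.6 times for the 10 pachytene genes. The Sertoli, Leydig and 6 tested spermatogonial genes thus rose in KO, as the 128 Slc genes did. The pachytene and spermatid genes fell in KO, as the 51 did. The part of any listed cell type in either set was not tested.

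The second comparison, EE_KO against KO, uses the same KO libraries. Here 54 of the 207 genes rose, where 46.8% of all genes tested rose, 128 fell, where 37.4% of all genes tested fell, and 25 did not pass. The median log2 change was -0.78, beside 0.24 over all genes tested. Slc2a5 stood 5.31 higher in EE_KO than in KO (SE 0.13), Slc6a21 5.14 (SE 0.13), Slc22a14 4.97 (SE 0.19) and Slc9c1 4.92 (SE 0.20), with limma adjusted p from 4.61e-07 to 1.48e-06. Slc7a4 stood lower by 3.61 (SE 0.26), and the changes of Slc25a5 and Slc30a2 were -3.60 (SE 0.24) and -3.47 (SE 0.24). Since KO serves both comparisons, changes of opposite sign in them are no separate evidence.

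The third comparison, EE_KO against WT, asks where Slc transcripts stood when MAPS was present on the knockout background. None of the 207 genes was called by limma, where 0.0377% of all genes tested were called, and none by voom on the recovered reads. At an unadjusted p under 0.05 were 5 of them, or 2.42%, where 7.22% of all genes tested had such a p. The lowest adjusted p was 0.522, that of the phosphate carrier Slc20a1, with 9.85 and 12.9 FPKM in EE_KO, 18.2 and 21.8 in KO and 6.87 and 8.35 in WT. Log2 changes ran from -0.41 for Slc22a18 (17.3 and 16.9 FPKM in EE_KO, 27.0 and 19.6 in WT) to 0.55 for Slc7a8, with a median standard error of 0.16. Group means lay within 1.5-fold of each other for 197 genes. A p above the threshold does not show that the groups were alike, and with this error changes of small size could not be seen. Slc50a1, Slc33a1 and Slc8a2 were the other genes with an unadjusted p under 0.05, at log2 changes of 0.53, 0.38 and -0.33.

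Replicates within each group differed from each other. Of the 128 genes that rose in KO against WT, 95 were higher in EE_KO replicate 1 than in replicate 2, with a median ratio of 1.25, and 71.9% of all genes that rose did the same. Of the 51 that fell, 15 were higher in replicate 1, as were 30.2% of all genes that fell. Between the KO libraries, 105 of the 128 that rose were higher in KO replicate 1, with a median ratio of 1.12, as were 66.6% of all genes that rose. Of the 51 that fell, 27 were higher in KO replicate 1, as were 43.7% of all genes that fell. Of the 28 not called, 24 were higher in KO replicate 1, as were 53.9% of all genes not called. Summed FPKM of all genes was 251584 in KO replicate 1 and 232716 in KO replicate 2. Over the 207 genes, the log2 change in KO against WT was set beside the log2 ratio of EE_KO replicate 1 over 2. The Pearson r was 0.523 and the Spearman rho 0.638. The change rests on the KO and WT libraries and the ratio on the EE_KO libraries. The correlation is a description across genes, which are not replicates. Slc7a4, with 7.58 and 3.64 FPKM in EE_KO, Slc25a5, with 13.2 and 7.55, and Slc52a3, with 18.9 and 9.73, are examples. In EE_KO all 12 Sertoli genes were higher in replicate 1, with a sum 1.86 times that of replicate 2, and all 10 spermatid genes were lower. The part of these cells in the difference was not tested.

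The WT libraries also differed, along the spermatid genes and along other lists. Summed FPKM of the spermatid genes in WT replicate 2 was 1.91 times that in replicate 1, with 9 of 10 higher. For the Leydig genes it was 1.87 times, with 7 of 7 higher, and for the spermatogonial genes 1.11 times, with 7 of 7 higher. The Sertoli sum was 1.005 times, with 7 of 12 higher. At low FPKM, the macrophage sum was 1.97 times and the peritubular and endothelial sum 0.880 times. Of the 51 Slc genes that fell in KO, 13 (25.5%) were higher in WT replicate 2, as were 36.8% of all genes that fell. Among these 13, the proton-coupled amino acid carrier Slc36a3 stood first, with 3.33 and 5.35 FPKM in the WT libraries, followed by Slc22a14 with 35.0 and 51.5, the taurine carrier Slc6a6 with 6.13 and 8.28, Slc35g3 with 20.04 and 24.8, Slc25a41 with 5.58 and 6.65 and Slc16a7 with 20.1 and 24.0. Slc36a3 and Slc6a6 were named after their values were seen. Slc2a5, Slc6a21, Slc22a16 and Slc9c1 were lower in replicate 2, as most pachytene genes were.

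**Figure D5:**
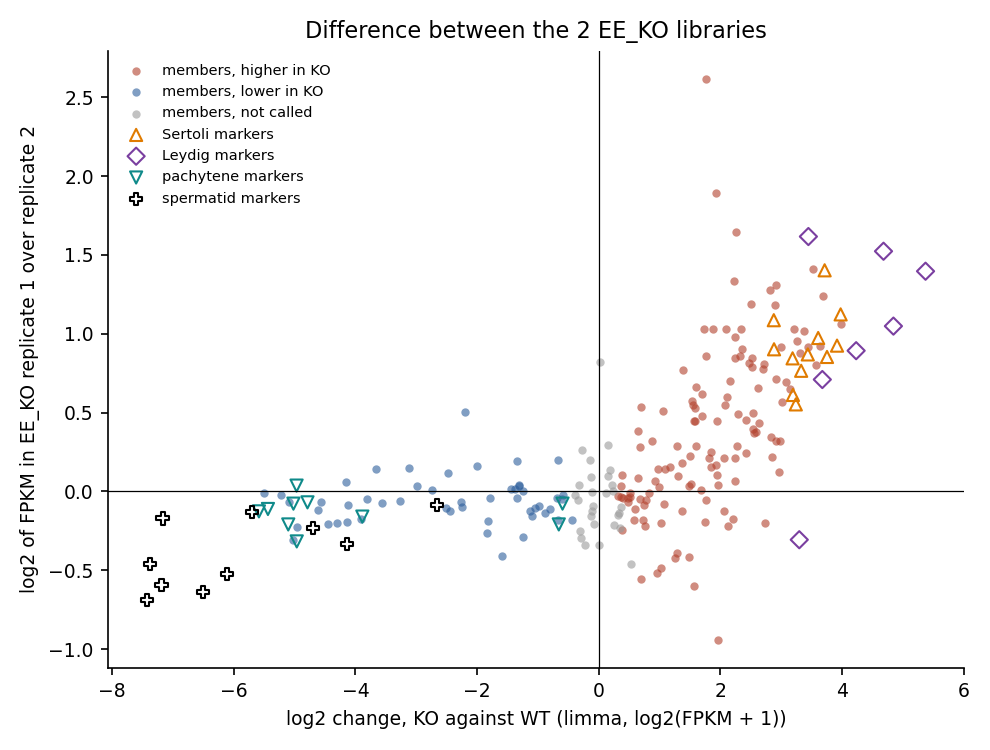
Log2 change in KO against WT (horizontal axis) and log2 ratio of EE_KO replicate 1 over replicate 2 (vertical axis) for the 207 solute carrier genes (points) and for Sertoli, Leydig, pachytene and spermatid marker genes (open symbols). Genes that rose in KO lie mostly above 0 on the vertical axis (95 of 128), and all 12 Sertoli genes do.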

How the data were processed

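RNA-seq values of 6 libraries (EE_KO, KO and WT, n = 2 each) were used as the authors deposited them, in FPKM per the file headers, for 54532 Ensembl genes. The builds GRCm38 and mm10 come from the submitters' processing notes; aligner, counter, annotation release and read strand were each not given in the sources used here. Symbols, positions and exon lengths came from GENCODE M21, which held 54495 of the genes. FPKM times exon-union length gave whole reads for 96.8 to 97.0% of values (tolerance 0.01), and a single read on a 2 kb transcript was worth 0.0278 to 0.0357 FPKM. Exons of 31 of the 207 genes overlap those of another tested gene.

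Genes that averaged 1 FPKM or more, 15907 in all, entered 1 linear model of 3 group means, fitted to log2(FPKM + 1) by limma 3.58.1 under R 4.3.3 with a trend of variance on level and no replicate block. The added 1 FPKM makes log2 changes of low genes smaller. Adjusted p is after Benjamini-Hochberg over all genes tested. The pipeline was tested on simulated data. Substrate groups were assigned by family, a few by symbol, and some families carry mixed substrates: Slc6a4, a serotonin carrier, counts among amino acid carriers.

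The genes, lists and substrate groups were chosen with earlier results of these data known, and the mean FPKM over all libraries chose the 207 genes. Genes were named by rule: up to 3 largest rises and 3 largest falls per substrate group with libraries that do not overlap, the 6 lowest p-values on the X chromosome, the 5 highest of each group, a list of carriers known from testis, and 3 on each side of the limit. Slc26a3, Slc9b2, Slc22a3, Slc30a8 and Slc40a1 of that list did not reach the limit. Some genes that the rule takes are not reported here. Genes of small remainders and those with an unadjusted p under 0.05 in EE_KO against WT were named after their values were seen. Promoter windows are RefSeq's (GRCm38.p6). Alternatives were other pseudocounts, filters and scalings, voom on recovered reads, smaller models, a replicate block and each library left out. Tables and figures used Python 3.11.15, pandas 2.3.3, numpy 2.4.6 and matplotlib 3.10.9.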

Additional observations from a re-analysis of the deposited data

How the results depend on the processing

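The counts of Slc genes kept within 1.5 times the reported ones in all alternatives except that with a mean of at least 5 FPKM, where fewer genes were tested: 61 rose and 40 fell in KO against WT, and 42 rose and 63 fell in EE_KO against KO, of 113. With no filter on level, counted after seeing the data, 167 of the 362 Slc genes not at 0 throughout rose and 74 fell in KO against WT, where 9160 of all 37383 genes rose and 9690 fell. With 1 library left out, KO against WT gave 116 to 126 up and 49 to 53 down, EE_KO against KO 50 to 54 up and 114 to 129 down, and EE_KO against WT 0 in each. TPM gave 140 up and 45 down, and voom 132 up and 54 down, in KO against WT. The share of Slc25a31 among ADP/ATP carriers differed between KO and WT by -65.4 to -62.9 percentage points over all alternatives. Libraries with the same number deviated little together over genes (r = 0.077 for EE_KO and KO, 0.069 for EE_KO and WT, -0.018 for KO and WT). These correlations cannot show whether the numbers mark the independent experiments of the design, since an effect could differ by group or touch few genes. A replicate block gave 126 up and 52 down in KO against WT. It gave 54 up and 126 down in EE_KO against KO, and 0 in EE_KO against WT. For the 82 genes that the naming rule takes, 2549 of 2576 recomputed changes kept direction and call, 27 lost the call and 0 reversed; the calls lost were of Slc16a3, Slc9a3r1, Slc7a6os, Slc4a1ap, Slc29a3, Slc35b4 and Slc12a4. With 2 libraries a group, the low genes rest on few reads, and small changes could not be seen.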
